A study of Mus musculus with 6 samples.

Results

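Iron handling was examined in mouse bone marrow-derived macrophages through 10 genes of iron uptake, storage, export and sensing: Steap3, Tfrc, Slc11a2, Slc11a1, Fth1, Ftl1, Ncoa4, Hmox1, Slc40a1 and Ireb2. They were found by gene symbol, and all 10 were among the 16138 genes of the authors' deposited table. The set was chosen by the deposited ratios of this same comparison, since it was drawn up around Steap3 with those values known. The ratios, p-values and q-values of the 10 genes are therefore descriptions and not tests of the set. RNA was sequenced from 3 samples of Morrbid cKO cells, from mice that were Morrbid fl/fl and carried Lyz2-Cre, and from 3 samples of control cells, from Morrbid fl/fl mice without Cre. Cells of both genotypes were grown from marrow for 7 days in 50 ng/ml M-CSF, the growth factor that turns marrow progenitors into macrophages. Morrbid is a long non-coding RNA of myeloid cells. Mice of both genotypes carried the loxP-flanked Morrbid gene, and Cre was made in the cKO cells alone, from the Lyz2 locus that is active in macrophages, monocytes and neutrophils. Any effect of Cre itself cannot be told apart from that of losing Morrbid. Age, sex and strain of the mice are not given in the sources used here. Nor do they say that the 3 samples of each genotype were different animals or cultures, and the p-values then cover only the spread among these samples, part or all of which may be technical. The authors' deposited table holds 1 log2 fold change of cKO over control, 1 p-value and 1 q-value per gene. Values per library and sequencing depth were not analysed here, so levels and the overlap of the samples cannot be given. All 12 macrophage markers checked, among them Adgre1, Csf1r and Cd68, were listed in the table. So were all 12 stromal and all 10 neutrophil markers, so being listed does not tell cell types apart. Without levels the labelled cell type could not be checked.

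Macrophages take up iron bound to transferrin through the transferrin receptor, encoded by Tfrc. In the acidified endosome the ferric iron is released, reduced by the ferrireductase STEAP3 and carried into the cytosol by DMT1, the product of Slc11a2. Iron that is not used is stored in ferritin, a shell built from heavy chains (Fth1) and light chains (Ftl1), or leaves the cell through ferroportin (Slc40a1). Macrophages that clear old red cells also gain iron from heme, which heme oxygenase 1 (Hmox1) breaks open. When iron is scarce, iron regulatory proteins, one of them encoded by Ireb2, bind hairpins called iron-responsive elements. At the 5' end of a transcript such a hairpin blocks translation, and at the 3' end it protects the transcript from decay.

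The hairpins are shown because they are the sequences through which iron acts on several of these transcripts. Transcripts of GENCODE release M21 (mouse build GRCm38) from 21877 protein-coding genes were searched on their own strand. The pattern was a window of 27 bases with the loop CAGTGN, 5 paired bases on each side of it, a bulged C, and at least 4 of 5 further pairs. In all, 17 genes, or 0.0777% of those searched, held it in an untranslated region. Among them were 4 of the 10 iron genes, with 7 elements. As the pattern describes known iron-responsive elements, matches in iron genes are not read as a result. In the sequences, written 5' to 3' as DNA letters, capitals mark the bulged C and the loop.

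Fth1, 5' UTR, chr19:9982733-9982759, plus strand: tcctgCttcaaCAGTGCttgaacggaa

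Ftl1, 5' UTR, chr7:45459780-45459806, minus strand: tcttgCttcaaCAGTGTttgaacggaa

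Slc40a1, 5' UTR, chr1:45925466-45925492, minus strand: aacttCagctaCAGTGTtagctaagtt

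Tfrc, 3' UTR, chr16:32631220-32631246, plus strand: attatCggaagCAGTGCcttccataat

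Tfrc, 3' UTR, chr16:32631599-32631625, plus strand: attatCgggagCAGTGTcttccataat

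Tfrc, 3' UTR, chr16:32631664-32631690, plus strand: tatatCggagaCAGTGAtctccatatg

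Tfrc, 3' UTR, chr16:32631711-32631737, plus strand: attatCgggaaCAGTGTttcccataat

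The ferritin elements were nearly the same: counted from 1 at the 5' end of the window, Ftl1 differed from Fth1 by C3T and C17T, and 25 of 27 bases were identical. The Slc40a1 element shared 13 of 27 bases with that of Fth1. The 4 elements found in Tfrc lay in its 3' UTR, and pairs of them differed at 2 to 10 bases. This is a count of matches to the pattern, and Tfrc may hold hairpins that depart from it. For the 6 other iron genes, Slc11a2 and Steap3 among them, no match says only that this pattern was not met. It was required in full within an untranslated region of an annotated transcript, and hairpins that depart from it would be missed. Coordinates are of GRCm38, whereas mm9 is the build named in the submitters' processing notes.

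Slc11a2 and Steap3, whose products carry and reduce iron in the endosome, were higher in cKO than in control macrophages at a q under 0.05 in the authors' deposited table, and the other 8 genes did not pass. Among all genes of the table, 1.72% passed that threshold, 0.849% higher and 0.874% lower. As the set was chosen on these ratios, the count of 2 of 10 is not read against those shares. The 10 genes had a median log2 fold change of 0.17, and 7 of them lay above 0. Over all 16138 genes the median was -0.01 and 47.7% lay above 0. For the same reason, the median and signs of the 10 genes are not read against these values.

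**Figure D1:**
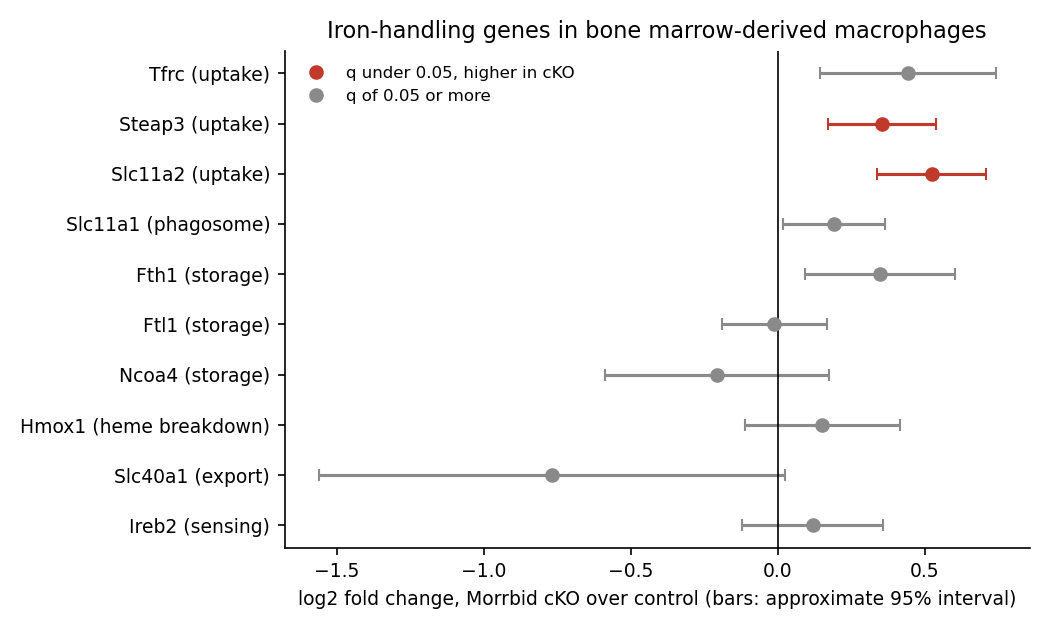
Log2 fold change of cKO over control for the 10 iron genes, grouped by role. Points are the authors' deposited ratios and bars are approximate 95% intervals computed from ratio and p-value together; Slc11a2 (0.52) and Steap3 (0.36) are the points past the q threshold, and Slc40a1 (-0.77) has the widest bar.

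Slc11a2 (Gene ID 18174), the endosomal iron transporter DMT1, had the highest ratio of the 10. The authors' deposited table gave it a log2 fold change of 0.52 (q = 1.58e-05), which is 1.44 times the control level. It stood 32nd by p-value among all genes. The standard error implied by that ratio and its p-value was 0.0947 log2 units, which gives an approximate 95% interval from 0.34 to 0.71. This interval assumes a Wald-type test, as do the others here. The authors' annotation joins 12 transcripts in this gene. DMT1 transcripts with and without an iron-responsive element in their 3' end are known, and the single ratio does not separate them.

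Steap3 (Gene ID 68428), the endosomal ferrireductase, was higher by a smaller amount. In the authors' deposited table its log2 fold change was 0.36 (q = 0.0146), which is 1.28 times the control level. The approximate interval ran from 0.17 to 0.54, and the implied standard error of 0.0945 was close to that of Slc11a2. Only 2 of the other STEAP family genes were listed. The authors' deposited table had Steap1 at -3.46 (q = 0.845) and Steap2 at -1.73 (q = 0.737), neither of which passed. Their implied standard errors were 2.36 and 1.05, and both intervals spanned 0.

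Tfrc (Gene ID 22042), the transferrin receptor and the transcript with 4 elements shown above, did not pass: the authors' deposited table gave a log2 fold change of 0.44 (q = 0.133) and an unadjusted p of 0.00361. Its ratio was larger than that of Steap3, but its implied standard error of 0.153 was wider, and a change of about 0.51 would have been needed to pass. The approximate interval ran from 0.14 to 0.74. Slc11a1 (Gene ID 18173), which encodes the phagosomal metal transporter NRAMP1 and is paralogous to Slc11a2, was listed in the authors' deposited table at 0.19 (q = 0.447). Its interval, from 0.02 to 0.37, overlapped that of Slc11a2 by little. The difference between the paralogs was not tested, since 1 ratio per gene gives no covariance between genes.

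The ferritin chains had unlike ratios. Fth1 (Gene ID 14319), the heavy chain with ferroxidase activity, was given a log2 fold change of 0.35 (q = 0.202) and an unadjusted p of 0.00722 by the authors' deposited table. Ftl1 (Gene ID 14325), the light chain, was listed in the authors' deposited table at -0.01 (q = 1.00). The approximate intervals were 0.09 to 0.60 for Fth1 and -0.19 to 0.17 for Ftl1, so that they overlapped, and the difference was not tested. Both transcripts carry nearly the same 5' element, shown above. The mouse genome holds many processed copies of ferritin genes, one of which, Ftl1-ps1, was also among the 17 genes with the element. Whether reads of Fth1 or Ftl1 were shared with such copies was not measured, so the separate ferritin ratios are given as uncertain. Ncoa4 (Gene ID 27057), the receptor that delivers ferritin to the lysosome for iron release, was listed in the authors' deposited table at -0.21 (q = 0.993), with an interval from -0.59 to 0.17.

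Slc40a1 (Gene ID 53945), ferroportin, the only known cellular iron exporter, had the lowest ratio of the 10 and the least precise one. The authors' deposited table put its log2 fold change at -0.77 (q = 0.598), which is 0.587 times the control level. Its implied standard error was 0.405, its interval ran from -1.56 to 0.03, and a change of about 1.35 log2 units would have been needed to pass. Beside this ratio, the 12 markers of stromal cells ran from -2.48 to -1.25 and all lay below 0. Whether stromal cells had a part in the Slc40a1 ratio was not tested. In bulk RNA, fewer cells of a type and less RNA per cell cannot be told apart.

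Hmox1 and Ireb2 did not pass, and the intervals of both spanned 0. A change of about 0.45 for Hmox1 and 0.41 for Ireb2 would have been needed to pass. Hmox1 (Gene ID 15368), heme oxygenase 1, was listed in the authors' deposited table at 0.15 (q = 0.987), with an interval from -0.11 to 0.42. Ireb2 (Gene ID 64602), iron regulatory protein 2, was listed in the authors' deposited table at 0.12 (q = 0.993), with an interval from -0.12 to 0.36. IRP2 is known to be controlled mainly by decay of the protein, which RNA does not show.

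**Figure D2:**
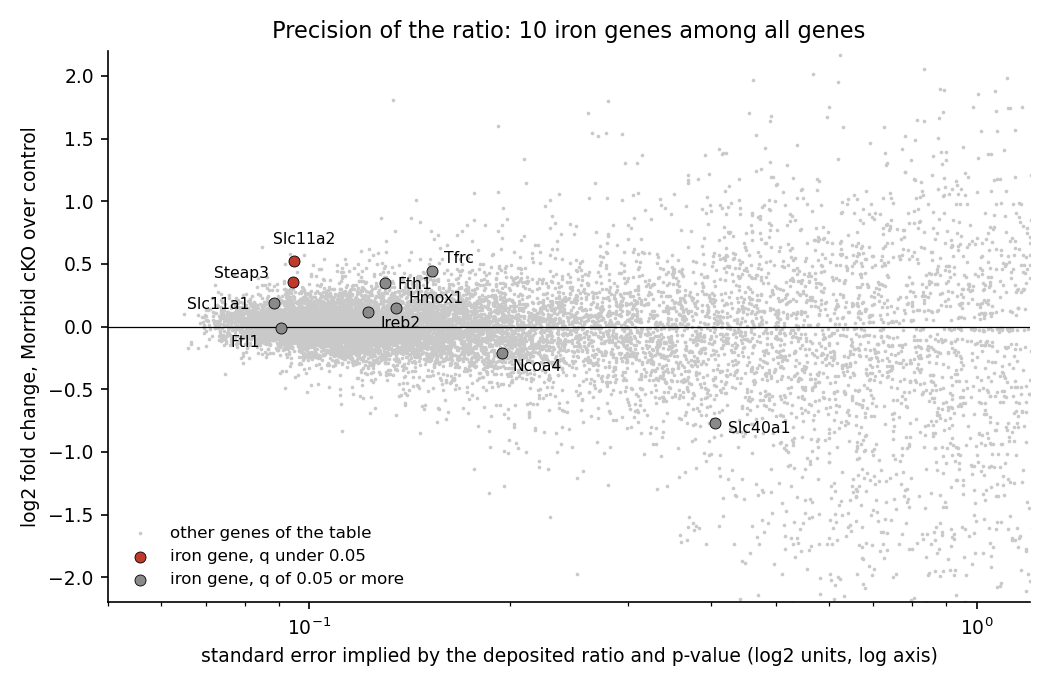
Log2 fold change of cKO over control against the standard error implied by each deposited ratio and p-value, on a log axis, for the 10 iron genes and for the other genes within the plotted range. Slc40a1 stands apart at 0.405, with the next widest, Ncoa4, at 0.194. Slc11a2 lies at 0.0947 and Steap3 at 0.0945.

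In the wider iron pathway no other gene passed. Of 105 other iron genes listed in the table, drawn from 9 lists, 0 passed a q under 0.05 in either direction, against 1.72% of all genes. With so small a share over all genes, the lack of calls is not read as a result about these genes. The same holds for each list below. At an unadjusted p under 0.05 there were 13 (12.4%), 3 higher and 10 lower, against 8.84% of all genes. These shares are of sets of unlike precision: the median implied standard error was 0.142 for the 105 genes and 0.185 over all genes. Over all genes, 697 were higher and 729 lower at that unadjusted p. The lists were chosen with earlier results of these data known, so the split by direction is not read as a result. No other tool could be run on 1 ratio per gene. The 105 genes had a median log2 fold change of -0.04, and 39 of them lay above 0. In the rest of the uptake list, none of 19 passed and the median was -0.13, with 14 below 0. Trf, transferrin itself, was listed in the authors' deposited table at -0.24 (q = 0.462). Exoc6, an exocyst subunit needed for transferrin recycling in red cell precursors, was listed in the authors' deposited table at -0.21 (q = 0.488). Cd163, the receptor for haptoglobin-bound hemoglobin, was listed in the authors' deposited table at -0.88 (q = 0.228). The authors' deposited table had the zinc and iron carrier gene Slc39a8 at -0.51 (q = 0.611) and its relative Slc39a14 at 0.26 (q = 0.838).

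None of 3 other storage genes passed. Herc2, a ubiquitin ligase that marks NCOA4 for decay, was listed in the authors' deposited table at 0.14 (q = 0.986). Pcbp1, an iron chaperone that loads ferritin, was listed in the authors' deposited table at 0.00 (q = 1.00). None of 8 other genes of export and the hepcidin axis passed. The nearest was Bmp2, a ligand of the pathway that controls hepcidin, which the authors' deposited table put at -0.57 (q = 0.0527). Atoh8 was at -1.85 (q = 0.253) there, and Cp, the plasma ferroxidase ceruloplasmin, was listed in the authors' deposited table at 0.35 (q = 0.717). Bmp2 is also made by stromal cells, whose markers had a median of -1.71, and the part of those cells was not tested. None of 7 other sensing genes passed. Their ratios ran from -0.14 to 0.13, and the authors' deposited table had Aco1, iron regulatory protein 1, at 0.08 (q = 0.993) and Fbxl5, which marks IRP2 for decay, at 0.13 (q = 0.910).

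Genes that use or release iron were likewise without a call. Among 16 other genes of heme breakdown and transport, 0 passed (median 0.03). The authors' deposited table had the heme exporter gene Flvcr1 at 0.25 (q = 0.368), Nfe2l2, which encodes NRF2, at -0.19 (q = 0.512), and Spic, a factor of iron-recycling macrophages, at 0.40 (q = 0.721). Of 9 heme synthesis genes 0 passed (median -0.08). The smallest p-values of that list belonged to Urod, a decarboxylase, and Fech, the enzyme that inserts the iron. The authors' deposited table had Urod at -0.20 (q = 0.726) and Fech at -0.15 (q = 0.726). Of 24 genes of mitochondrial iron and iron-sulfur clusters 0 passed (median -0.05). All 24 had an implied standard error no larger than 1, which still leaves modest changes below the threshold. At the all-gene median standard error of 0.185, a log2 fold change of about 0.62 would have been needed to pass. The mitochondrial chaperone gene Hspa9 was listed in the authors' deposited table at 0.29 (q = 0.533) and the iron importer gene Slc25a37 at -0.03 (q = 0.993). Of 10 NRF2 targets 0 passed (median -0.10), and the authors' deposited table had Pgd at -0.26 (q = 0.239), Gsr at -0.25 (q = 0.446) and Nqo1 at -0.57 (q = 0.712). Of 9 genes of lipid peroxide defence and ferroptosis 0 passed (median 0.09). They included Gch1 at 0.38 (q = 0.304), Gpx4, which reduces lipid peroxides, at -0.21 (q = 0.320), and Sat1 at -0.26 (q = 0.372), per the authors' deposited table.

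**Figure D3:**
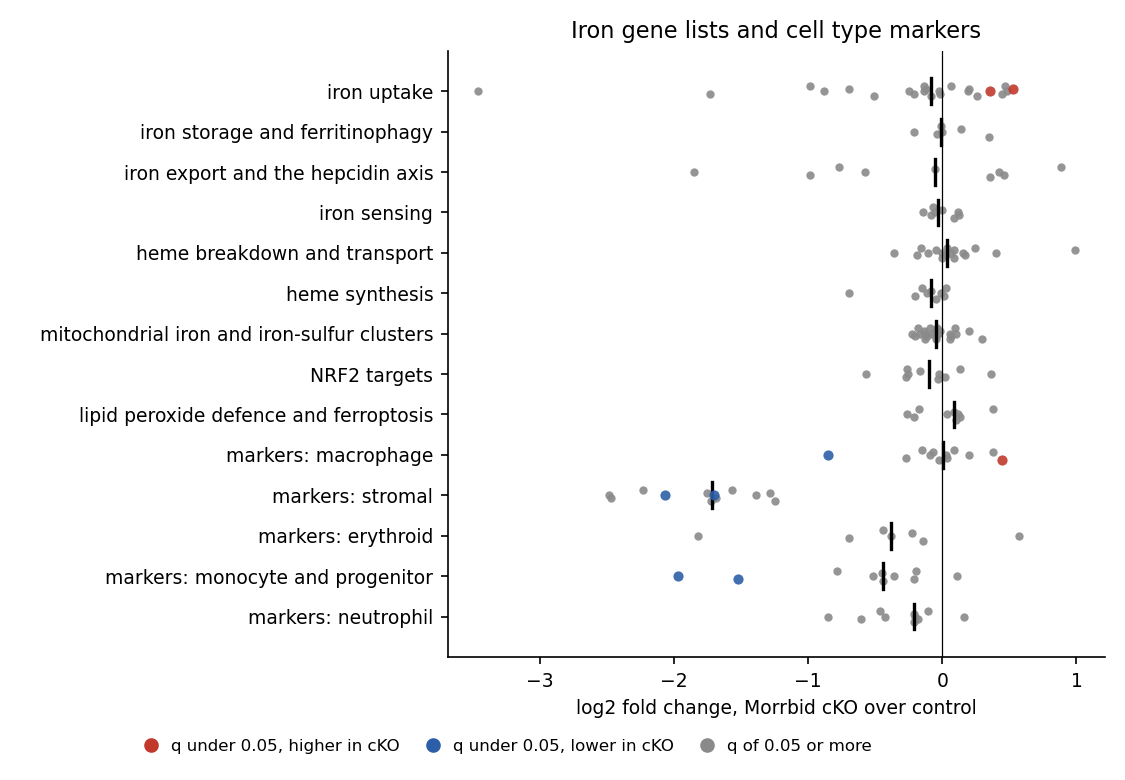
Log2 fold change of cKO over control for each listed gene of 9 iron lists and 5 lists of cell type markers. Each point is 1 gene, black bars are medians and colours mark the q threshold; in the iron lists only Slc11a2 and Steap3 pass, and all 12 stromal markers lie below 0 with a median of -1.71.

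Other genes that hold the iron-responsive element pattern were compared as values. Of the 13 other genes, 10 were listed and none passed a q under 0.05, against 1.72% of all genes. One was Alas2, the erythroid heme synthesis enzyme with a 5' element, which the authors' deposited table had at -0.70 (q = 0.993, implied standard error 1.49). The 4 iron genes with elements did not pass either. With 1.72% of all genes called, the lack of calls among so few genes is not read as a result. Slc11a2 and Steap3, which passed, held no match to this pattern. As the iron genes were chosen on these ratios, their calls are not set against their matches.

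Marker lists of other cells give the setting of these ratios. Among 12 macrophage markers (median 0.00) 1 rose and 1 fell. The authors' deposited table had Adgre1 at 0.44 (q = 0.0104) and Lyz2 at -0.85 (q = 4.6e-06). Lyz2 is the locus that carries Cre, in cKO cells alone, so its ratio is not read as a change of macrophages. Among 12 stromal markers 2 fell, and the authors' deposited table had Col5a1 at -1.70 (q = 0.000815) and Acta2 at -2.06 (q = 0.0458). Among 10 monocyte and progenitor markers (median -0.44) 2 fell, and the authors' deposited table had Cd34 at -1.97 (q = 1.4e-11) and F13a1 at -1.52 (q = 4.51e-08). None of 10 neutrophil markers (median -0.21) and none of 7 listed erythroid markers (median -0.38) passed. Erythroid precursors are rich in Tfrc and Steap3, and only 1 of those 7 markers had a ratio above 0, and for 3 of 7 the standard error was no larger than 1. The part of any of these cells in the ratios of Slc11a2 and Steap3 was not tested.

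Genes beside the iron genes on their chromosomes were compared next, as position had no part in the choice. Among the 200 genes that lie within 10 listed places of one of the 10 iron genes in the RefSeq gene order of GRCm38, 4 passed a q under 0.05 (2.0%), close to the 1.72% of all genes. Genes absent from the authors' deposited table were left out of this order, so unlisted genes may lie between listed neighbours. Marco, a macrophage scavenger receptor, was the next listed gene to Steap3 on chromosome 1. The authors' deposited table listed Marco as higher (2.23, q = 0.0485). The next listed gene on the other side of Steap3, 3110009E18Rik, was at -0.15 (q = 0.993) in the authors' deposited table. Inhbb, which encodes a subunit of activin B and lies 10 places from Steap3, was listed as lower in the authors' deposited table (-1.97, q = 0.0104). Beside Slc11a2 on chromosome 15, Lima1, an actin-binding protein encoded 7 places away, was listed as higher in the authors' deposited table (0.37, q = 0.0108). Near Ncoa4 on chromosome 14, Tmem273 was listed as lower in the authors' deposited table (-0.83, q = 2.29e-10). None of the 20 neighbours of Tfrc, Slc11a1, Fth1, Ftl1, Hmox1, Slc40a1 or Ireb2 passed.

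**Figure D4:**
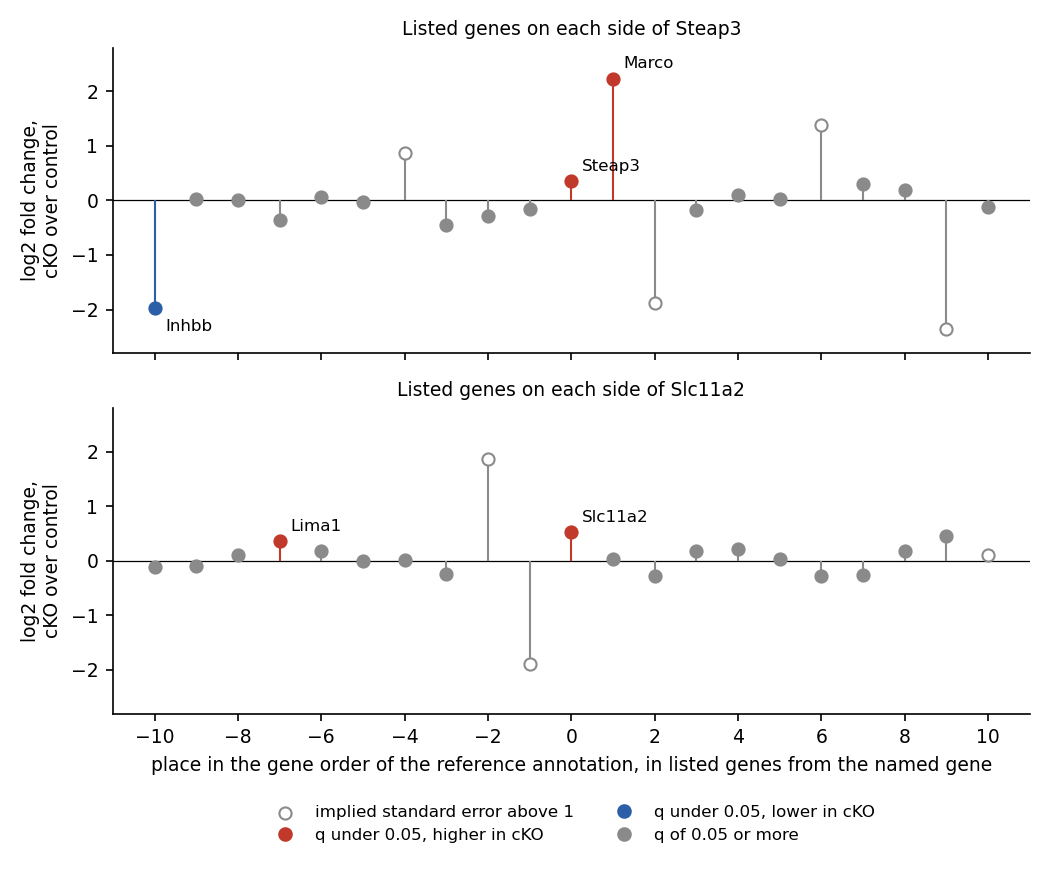
Log2 fold change of cKO over control for the 10 listed genes on each side of Steap3 and of Slc11a2, in gene order, with open circles for genes whose implied standard error exceeds 1. Marco (2.23) is the listed gene next to Steap3 (0.36), while the nearest listed neighbours of Slc11a2 (0.52) are past the threshold on neither side.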

How the data were processed

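Per the file headers, the authors deposited 1 log2 ratio of Morrbid cKO over WT per gene with a p-value and a q-value. WT was taken as the Morrbid fl/fl group without Cre, from the genotype labels. DESeq2 1.4.5, RSEM 1.3.1, Bowtie2 and build mm9 appear in the labels, per the submitters' processing notes, which give them no role or order. Filters and scaling are not given in the sources used here. As each ratio is scaled by the authors, a shift common to all transcripts would not show.

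The 10 genes and all lists were chosen with earlier results of these data known. A gene was called at a q under 0.05. The deposited p-values gave a signed normal quantile, and the ratio divided by it an implied standard error (median 0.185 log2 units), used for approximate 95% intervals in place of depth, which is unknown. Named genes were the 10 genes, any called gene of the iron and marker lists, up to 3 others with the smallest p-values in each iron list, paralogs and called neighbours. Slc39a8, Slc39a14, Pcbp1, Aco1, Slc25a37, Alas2, Csf1r and Cd68 are named outside this rule for what they encode. 3110009E18Rik is named as the listed gene next to Steap3 on the side away from Marco. Neighbours came from the RefSeq order of GRCm38, in which 16026 Gene IDs were found. Elements were sought in GENCODE M21 transcripts. No count table was at hand, so the planned model of counts was not run. The calculation of the adjustment and of the implied standard error was checked on ratios simulated with normal noise. That check cannot show whether the deposited p-values come from a Wald-type test. The software was Python 3.11.15 with SciPy 1.17.1, NumPy 2.4.6, pandas 2.3.3 and matplotlib 3.10.9.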

Additional observations from a re-analysis of the deposited data

How the results depend on the processing

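No paired analysis was possible because only 1 deposited ratio per gene was at hand, without the single libraries. Fits that leave out a sample were not run for the same reason. At a q under 0.01, 165 genes of the whole table, 1 of the 10 iron genes (Slc11a2) and 1 of 200 neighbours (Tmem273) passed. With a Holm adjustment 67 genes, 1 iron gene (Slc11a2) and 1 neighbour (Tmem273) passed. With a log2 fold change of 1 or more in size also required, 94 genes, 0 iron genes and 2 neighbours (Inhbb and Marco) passed. These settings are stricter by construction. Among the 105 other iron genes 1 passed, Bmp2 (lower), at a q under 0.1 and again when genes with an implied standard error above 1 were set aside. Taking 5 places on each side left 1 called neighbour, and 20 places gave 9 of 400. The calls of all 10 iron genes held at a q under 0.1, over genes of type mRNA, and without genes of an implied standard error above 1.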
